A study of Homo sapiens with 10 samples.

Results

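The mRNAs of the enzymes and the transporter that carry cysteine toward taurine and sulfate were followed across media of differing cysteine content in HEK293T, a long-established line derived from human embryonic kidney. The route was represented by 5 genes (CDO1, CSAD, ADO, SLC6A6 and GOT1) out of 78894 gene IDs in the deposited table. They were chosen by their roles, with earlier results of these data known. All 5 were found by matching Ensembl IDs to GENCODE 44. Cells for which the labels name no knockout or reporter were cultured for 24 h in these media. Cysteine was left out (0X, n = 2), supplied at the usual amount (1X, n = 4) or supplied at 10 times that amount (10X, n = 4). The methods section that includes the 10 times medium uses medium deficient in cysteine and methionine. Serum, methionine and the other supplements were returned there in every group. Another section compares complete medium with cystine-free medium that carries dialyzed serum. The RNA methods refer to an amino acid starvation treatment described earlier, wording near the heading of this other section, which has no 10 times medium. They do not say which section was followed for each group. A difference in serum or base medium between 1X and either of the other media therefore cannot be told apart from that in cysteine. The labels call the samples biological replicates of 1 cell line, the study's methods describe wells of a plate seeded side by side, and p-values therefore measure only the spread between such samples. Poly(A)-selected RNA was sequenced, and each value is a normalized count, the reads on a gene divided by a size factor of its library.

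Cysteine dioxygenase, encoded by CDO1, oxidizes the thiol of free cysteine to cysteine sulfinate and commits the amino acid to breakdown. The sulfinate is either decarboxylated by CSAD to hypotaurine, which is oxidized further to taurine, or transaminated by the aspartate aminotransferases GOT1 and GOT2 to a product that releases sulfite and pyruvate. ADO oxidizes cysteamine, a breakdown product of coenzyme A, to hypotaurine and also acts as an oxygen sensor on amino-terminal cysteines. SLC6A6 is the sodium-dependent taurine transporter of the plasma membrane, and taurine is an abundant osmolyte of the kidney. The study asked how cysteine supply controls CDO1 protein through a ubiquitin ligase that uses LRRC58 as its substrate receptor. Only mRNA was measured in the data described here.

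The libraries held between 34836014 and 61654861 reads on genes. Mitochondrially encoded transcripts took 5.15% to 5.71% of those reads in 0X, 4.51% to 5.05% in 1X and 0.117% to 0.146% in 10X, so the 10X libraries stood apart from all others, and the part of this in any difference that involves 10X was not tested. The 4 markers of the HEK293 lineage (PAX2, LHX1, NEFM and INA) were all present, with summed normalized counts of 15736 to 16313 in 0X, 17810 to 18873 in 1X and 19094 to 20109 in 10X. Leukocyte markers summed to at most 4.36 and hepatocyte markers to at most 32.1 in any library. Of the fibroblast and adipocyte markers, 1 of 2 each had a median of 10 or more, with summed counts of 605 to 1004 and of 32.7 to 70.4. Single markers moved with the media: PAX2 rose in 0X (log2 fold change 1.26, limma adjusted p = 5.06e-04), NEFM fell in 0X (-0.29, limma adjusted p = 8.14e-04), INA rose in 10X (0.65, limma adjusted p = 1.48e-09) and the fibroblast marker COL1A1 fell in 10X (-0.49, limma adjusted p = 1.87e-05), and their part in the results was not tested. In bulk RNA, fewer cells of a type and less RNA per cell cannot be told apart.

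All 5 members passed the filter on low values (at least 10 normalized counts in 3 or more libraries), as did 29045 genes in all. Between 215 and 524 reads fell on CDO1 in a library, 399 to 730 on CSAD, 1563 to 3961 on ADO, 701 to 3105 on SLC6A6 and 1962 to 4917 on GOT1. Levels can be compared between genes only per length, so normalized counts were divided by the exon length in kilobases. On that scale GOT1 was the most abundant member in 1X at 1014 ± 41.1 per kilobase (SD, n = 4), followed by ADO at 549 ± 39.4 (SD, n = 4). SLC6A6 had 204 ± 13.3 (SD, n = 4), CDO1 141 ± 12.9 (SD, n = 4) and CSAD 131 ± 30.5 (SD, n = 4) per kilobase in 1X. The last 2 did not differ beyond their spread. Among 15652 protein-coding genes, GOT1 ranked at the percentile 89.3 in 1X, ADO at 78.2, SLC6A6 at 52.7, CDO1 at 43.5 and CSAD at 41.8. The order of the members changed in 0X, where SLC6A6 had 98.1 ± 1.95 per kilobase (SD, n = 2), below CDO1 with 159 ± 2.60 (SD, n = 2) and CSAD with 139 ± 6.46 (SD, n = 2).

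**Figure D1:**
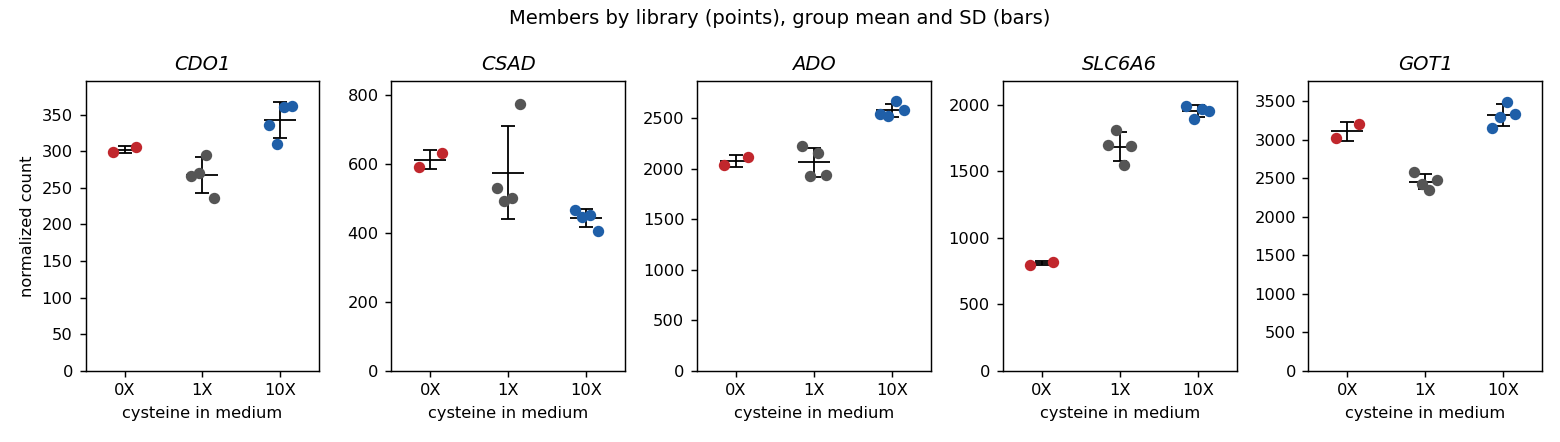
Normalized count (vertical axis, from 0) of each member in every library, by the cysteine content of the medium; points are libraries and bars the group mean with its SD. SLC6A6 sits near 800 in the 2 libraries of 0X and above 1500 in all others, GOT1 is lowest in 1X, and 1 library of 1X is high for CSAD.

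The promoters of CDO1, the entry enzyme, and of GOT1, which was higher in both altered media than in 1X, are shown as the reference sequence that these mRNAs start from. Promoters of RefSeq (GRCh38.p14, 250 bases before to 50 bases after the start of the gene) matched 4 of the 5 members by symbol, namely CDO1, CSAD, ADO and GOT1. They were searched on both strands for TGCATCA, the core of the element bound by amino acid response factors such as ATF4, and for TGACNNNGC, the core of the antioxidant response element. TGCATCA was found in 914 of 34796 promoters (2.63%) and TGACNNNGC in 4643 (13.3%). The promoter of GOT1 held TGCATCA from 197 to 191 bases before the start, at chr10:99430815-99430821, printed in capitals, and the other 3 promoters held neither motif in this window. A match is a description of the letters and does not show that a factor binds there. The GOT1 sequence covers chr10:99430575-99430874 and that of CDO1 chr5:115816610-115816909, both on the minus strand and read 5′ to 3′ along the gene.
GOT1: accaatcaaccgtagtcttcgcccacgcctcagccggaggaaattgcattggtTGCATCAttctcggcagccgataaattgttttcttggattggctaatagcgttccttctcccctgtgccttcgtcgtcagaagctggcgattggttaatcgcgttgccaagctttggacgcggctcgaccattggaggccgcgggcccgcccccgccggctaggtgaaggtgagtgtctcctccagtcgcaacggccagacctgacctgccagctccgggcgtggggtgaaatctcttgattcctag
CDO1: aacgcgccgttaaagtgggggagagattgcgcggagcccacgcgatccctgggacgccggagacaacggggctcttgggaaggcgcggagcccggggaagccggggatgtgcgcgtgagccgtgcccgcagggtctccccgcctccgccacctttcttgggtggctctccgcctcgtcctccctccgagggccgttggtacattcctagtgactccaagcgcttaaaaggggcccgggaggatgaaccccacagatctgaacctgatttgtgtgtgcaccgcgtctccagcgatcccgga
The CDO1 sequence, in which nothing is in capitals, held 30 CG dinucleotides, that of CSAD 29, that of GOT1 24 and that of ADO 19, against a median of 14 over all promoters.

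SLC6A6 was the member that changed most when cysteine was left out. The gene (ENSG00000131389) occupies 14402576 to 14489349 of chromosome 3 (GRCh38, plus strand) and has 8254 exon bases. Its normalized counts were 798.4 and 821.2 in the 0X libraries, and 1696, 1812, 1545 and 1694 in the 1X libraries. In 10X they were 1993, 1895, 1973 and 1956. The 3 groups did not overlap, and the order 0X, 1X, 10X held for every library. From a mean of 1687 ± 109 (SD, n = 4) in 1X the transcript fell to 810 ± 16.1 (SD, n = 2) in 0X, which is 48.1% on the fitted log2 scale (log2 fold change -1.06, SE 0.0769, adjusted p = 9.69e-07 from limma across all genes kept). In 10X it rose to 1954 ± 42.5 (SD, n = 4), or 116.0% of 1X (log2 fold change 0.21, SE 0.0531, limma adjusted p = 2.40e-03). Between the extremes, 0X against 10X, the log2 fold change was -1.27 (SE 0.0538, limma adjusted p = 5.65e-16). The exact permutation test of this gene alone, 2-sided, gave p = 0.067 for either comparison with 0X, which is the smallest p that 2 libraries against 4 allow, and p = 0.029 for 10X against 1X, the smallest for 4 against 4.

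The fall of the taurine transporter in 0X was among the larger ones in the comparison with 1X. Of the 2473 genes called lower in 0X than in 1X, 169 (6.83%) had a larger fall, and its log2 fold change lay at the percentile 2.65 of all genes tested. Of the 7087 genes called lower in 0X than in 10X, 1495 (21.1%) had a larger fall. On the minus strand, GRIP2 shares 243 of the exon bases of SLC6A6 (2.94%). GRIP2 had mean counts of 250 in 0X, 296 in 1X and 734 in 10X, which, if spread evenly along that gene, would place 5.11 and 6.05 counts on the shared bases in 0X and 1X. According to the methods reads over several genes were discarded, so these figures give the size of the overlap and not reads added to SLC6A6. They are small beside the fall of SLC6A6 in 0X.

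CDO1 mRNA rose in 10X. The gene (ENSG00000129596, chromosome 5, 115804733 to 115816659, minus strand, 1894 exon bases) has no exon base in common with any other gene in GENCODE 44. Its normalized counts were 298.4 and 305.4 in 0X, 266.8, 270.5, 295.4 and 235.9 in 1X, and 336.4, 309.6, 361.0 and 362.0 in 10X. Every 10X library lay above every other library, and both 0X libraries lay just above the highest 1X library. The mean of 342 ± 24.8 (SD, n = 4) in 10X was 128.1% of the 267 ± 24.4 (SD, n = 4) in 1X on the fitted scale (log2 fold change 0.36, SE 0.0926, limma adjusted p = 3.32e-03, exact permutation p = 0.029). The call was lost without 10X replicate 3 (0.33, limma adjusted p = 0.0143) and without 10X replicate 4 (0.33, limma adjusted p = 0.0144).

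No call was made for CDO1 in cysteine-free medium. The mean of 302 ± 4.92 (SD, n = 2) in 0X gave a log2 fold change of 0.18 against 1X, with an interval of 2 SE on either side from -0.07 to 0.43 (limma adjusted p = 0.313, exact permutation p = 0.2). Against 10X the log2 fold change in 0X was -0.18 (SE 0.0968, limma adjusted p = 0.120, exact permutation p = 0.133).

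CSAD, which decarboxylates the sulfinate made by CDO1, had its lowest values in 10X. The gene (ENSG00000139631) spans 53157663 to 53180925 on the minus strand of chromosome 12 and has 4405 exon bases. Its normalized counts were 593.4 and 633.6 in 0X, 531.5, 492.9, 502.5 and 775.8 in 1X, and 468.6, 446.5, 453.2 and 406.1 in 10X. All 10X libraries lay below all others, while the 0X values lay within the range of 1X, whose replicate 4 was the highest of the 10 libraries. CSAD was higher in 0X, with 614 ± 28.4 (SD, n = 2), than in 10X, with 444 ± 26.6 (SD, n = 4), by a log2 fold change of 0.47 (SE 0.0822, limma adjusted p = 2.77e-05, exact permutation p = 0.067).

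Neither comparison of CSAD with 1X, where the mean was 576 ± 134 (SD, n = 4), passed the threshold. The log2 fold change in 10X was -0.35 (SE 0.116, limma adjusted p = 0.0161, exact permutation p = 0.029) and for 0X it was 0.12, within an interval of 2 SE from -0.19 to 0.42 (limma adjusted p = 0.610). The difference between 10X and 1X was called with DESeq2 on the recovered reads (-0.38, adjusted p = 4.61e-03) and without 1X replicate 3 (-0.41, limma adjusted p = 3.69e-03), and was -0.20 without 1X replicate 4 (limma adjusted p = 0.0373). On the other strand, ZNF740 shares 106 exon bases with CSAD and a long noncoding gene, ENSG00000257808, shares 183. Spread evenly, the mean counts of these neighbours would place 28.2 and 33.8 on the shared bases in 0X, 29.3 and 30.2 in 1X, and 45.8 and 20.2 in 10X.

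ADO, the cysteamine dioxygenase, did not pass the test in 0X and rose in 10X. The gene (ENSG00000181915) occupies 62804720 to 62808479 on the plus strand of chromosome 10, with 3760 exon bases. Normalized counts were 2036 and 2118 in 0X, 2222, 1931, 2157 and 1943 in 1X, and 2543, 2523, 2670 and 2585 in 10X. The 0X libraries lay inside the range of 1X, and the 10X libraries lay above both. The mean rose from 2063 ± 148 (SD, n = 4) in 1X to 2580 ± 65.1 (SD, n = 4) in 10X, or 125.2% (log2 fold change 0.32, SE 0.0530, limma adjusted p = 5.45e-05, exact permutation p = 0.029). The 0X mean of 2077 ± 57.6 (SD, n = 2) was lower than that of 10X (log2 fold change -0.31, SE 0.0479, limma adjusted p = 4.33e-06, exact permutation p = 0.067). Against 1X the log2 fold change in 0X was 0.01, with an interval of 2 SE from -0.13 to 0.16 (limma adjusted p = 0.923). An antisense long noncoding gene, ENSG00000238280, covers 159 exon bases of ADO (4.23%) and would place 61.8, 59.5 and 76.3 counts on them in 0X, 1X and 10X if its reads were spread evenly.

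GOT1, the cytosolic aspartate aminotransferase that can take cysteine sulfinate as a substrate, was higher in both altered media than in 1X. It lies on chromosome 10 (ENSG00000120053, 99396870 to 99430624, minus strand, 2424 exon bases) and has no exon base in common with any other gene. Normalized counts were 3020 and 3201 in 0X, 2586, 2424, 2349 and 2477 in 1X, and 3156, 3294, 3495 and 3342 in 10X. All 1X libraries lay below all others, and the 0X and 10X libraries overlapped. The 1X mean of 2459 ± 99.6 (SD, n = 4) compared with 3322 ± 140 (SD, n = 4) in 10X, or 135.1% (log2 fold change 0.43, SE 0.0469, limma adjusted p = 5.37e-07, exact permutation p = 0.029), and with 3111 ± 128 (SD, n = 2) in 0X, or 126.5% (0.34, SE 0.0625, limma adjusted p = 1.32e-03, exact permutation p = 0.067). The call in 0X was lost without 0X replicate 1 (0.38, limma adjusted p = 0.0167) or without 0X replicate 2 (0.30, limma adjusted p = 0.0464), when 1 library stood for the group. Between 0X and 10X the log2 fold change was -0.09, with an interval of 2 SE from -0.19 to 0.00 (limma adjusted p = 0.0951, exact permutation p = 0.267). Scaling the libraries to equal totals moved it to -0.18 (limma adjusted p = 1.82e-03).

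**Figure D2:**
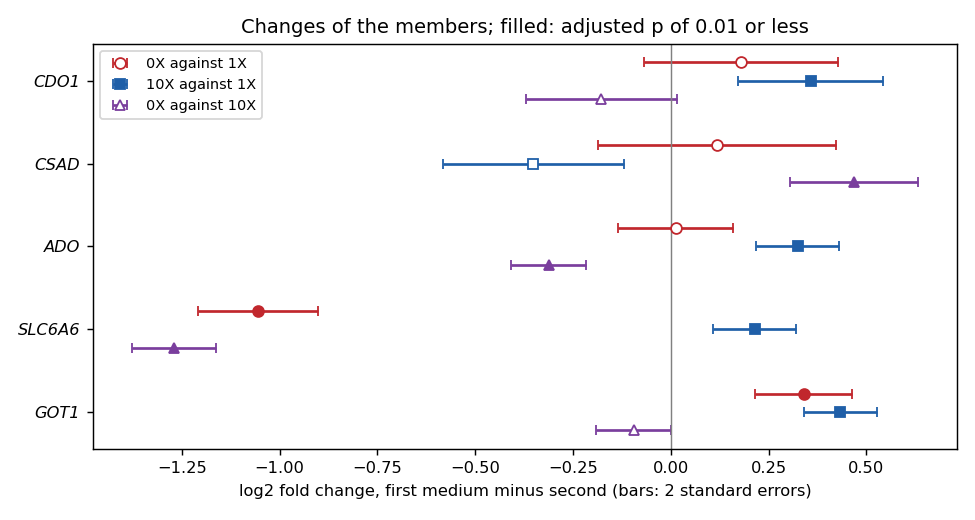
Log2 fold change (horizontal axis, the medium named before the word against minus the one after it) of each member in the 3 comparisons, with bars of 2 SE; filled marks have a limma adjusted p of 0.01 or less. SLC6A6 in 0X stands apart at -1.06 and -1.27, the other values lie between -0.35 and 0.47, and CSAD is the member whose 10X value is negative.

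Of the 5 members, 2 were called between 0X and 1X, GOT1 higher and SLC6A6 lower, where 15.9% of all genes tested were called (7.39% higher, 8.51% lower). Between 10X and 1X, 4 were called, all higher, where 46% of all genes were called (23.1% higher, 22.9% lower). Between 0X and 10X, 3 were called, CSAD higher and ADO and SLC6A6 lower in 0X, where 48% of all genes were called (23.6% higher, 24.4% lower). The 4618 genes behind the 15.9% became 1198 without 0X replicate 1, 978 without 0X replicate 2, 2968 without 1X replicate 1 and 2795 without 1X replicate 2. The 3 comparisons share libraries and are not independent of each other. The groups did not overlap for 3, 5 and 4 members respectively, against 46.9%, 51.6% and 66% of all genes. The median log2 fold change of the members was 0.12 in 0X and 0.32 in 10X, each against 1X, beside 0.00 and 0.01 over all genes. Scaling to equal totals moved the median of all genes in 10X from 0.01 to 0.12 and the share of called genes that were higher from 50.3% to 61.8%. Under it the same comparison gave 0.46 for CDO1, -0.25 for CSAD, 0.43 for ADO, 0.32 for SLC6A6 and 0.54 for GOT1, so each kept its sign.

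Apart from SLC6A6 in 0X, the called member changes were smaller than most called changes in the same direction. In 10X, 69.0% of the 6721 genes called higher had a larger rise than GOT1, 81.9% than ADO, 78.4% than CDO1 and 94.8% than SLC6A6. In 0X, 87.8% of the 2145 genes called higher had a larger rise than GOT1.

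The balance between members can be read from ratios of their normalized counts within a library, which no scaling of libraries alters; these ratios were chosen after the values were seen and are given without a test. The ratio of CSAD to CDO1 was 2.03 in 0X (1.99 to 2.08 over 2 libraries), 2.20 in 1X (1.70 to 3.29 over 4) and 1.30 in 10X (1.12 to 1.44 over 4). The 10X libraries lay below all others in this ratio. The ratio of GOT1 to CSAD, the enzymes on either side of the sulfinate branch point, was 5.07 in 0X (5.05 to 5.09), 4.41 in 1X (3.19 to 4.92) and 7.51 in 10X (6.74 to 8.23). Here the 10X libraries lay above all others, and CSAD in 1X replicate 4 set the lowest value of 1X. The ratio of SLC6A6 to CDO1 was 2.68 in 0X, 6.37 in 1X (5.23 to 7.18) and 5.73 in 10X (5.40 to 6.12), so it separated 0X from the rest. For ADO to CDO1 the means were 6.88, 7.75 and 7.56 in 0X, 1X and 10X, and the 1X and 10X libraries overlapped. Both 0X libraries (6.82 and 6.94) lay below all others, of which the lowest was at 7.14.

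**Figure D3:**
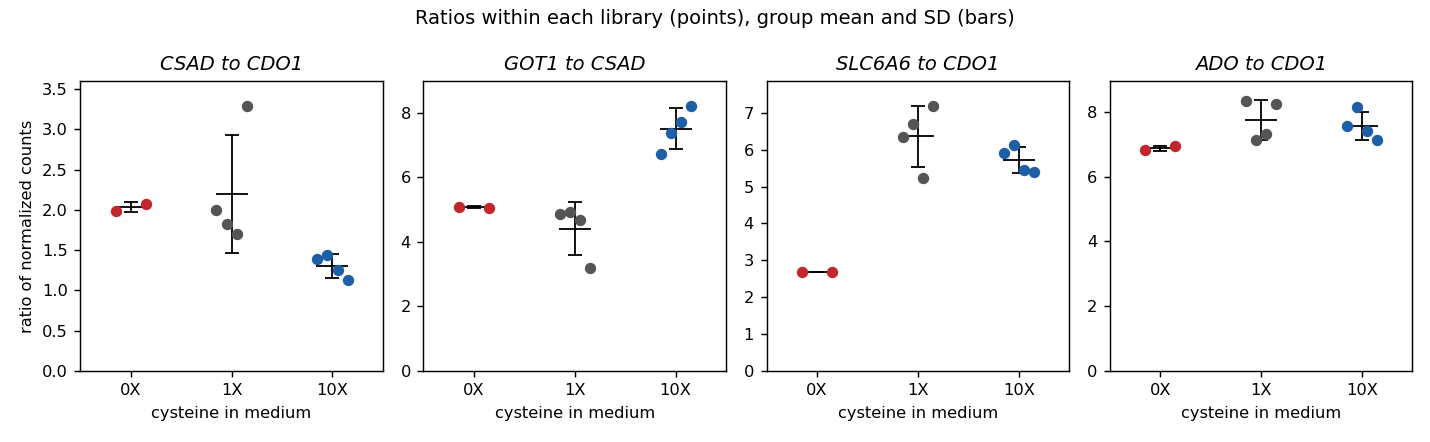
Ratio of the normalized counts of 2 members within each library (vertical axis, from 0, no unit) by the cysteine content of the medium; points are libraries and bars the group mean with its SD. CSAD to CDO1 is lowest and GOT1 to CSAD highest in 10X, and SLC6A6 to CDO1 is near 2.68 in both 0X libraries.

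The genes around the members were described by lists of the pathway, 66 genes in all with the members, of which 63 passed the filter. Leaving the members out, 22 of 58 genes were called in 0X against 1X (8 higher, 14 lower) and 42 of 58 in 10X against 1X (17 higher, 25 lower), beside 15.9% and 46% of all genes tested. These shares are also the ones to set beside each list that follows. They include genes of low counts. With a minimum of 50 in at least 3 libraries, 4878 of 21198 genes were called in 0X and 12408 of 21198 in 10X, which are larger shares. Without either 0X library 5 of the 58 were called in 0X against 1X, and without 1X replicate 1 or 2 there were 12. The median log2 fold changes were -0.12 in 0X and -0.13 in 10X. The thiol oxidation list holds CDO1, CSAD and ADO together with FMO1, which is known to oxidize hypotaurine to taurine, and GADL1, a related decarboxylase that did not pass the filter. FMO1 had normalized counts of 24.7 to 31.5 in 1X and 8.99 to 18.5 in 10X and fell there (log2 fold change -0.97, SE 0.285, limma adjusted p = 8.13e-03), a call lost in 11 of 19 alternative settings. In 0X its counts were 8.72 and 17.1 (-1.15, SE 0.369, limma adjusted p = 0.0327).

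Of the 7 genes of coenzyme A synthesis, the source of cysteamine for ADO, 2 were higher and 3 lower in 0X, and 3 were higher and 4 lower in 10X, each against 1X. With equal totals, 2 rather than 4 were lower in 10X. The 5 calls in 0X were lost with limma when either 0X library was left out, and 3 were made without 1X replicate 1 or 2. PPCDC, which makes 4′-phosphopantetheine by decarboxylating the cysteine conjugate, rose in 0X from a mean of 674 ± 24.1 (SD, n = 4) to 949 ± 15.8 (SD, n = 2) and fell in 10X to 412 ± 38.4 (SD, n = 4). Its log2 fold changes were 0.49 (SE 0.0810, limma adjusted p = 5.92e-04) and -0.71 (SE 0.0769, limma adjusted p = 5.25e-07). PPCS, which joins cysteine to phosphopantothenate, was higher in both media (0.50 and 0.35, limma adjusted p = 4.41e-03 and 2.02e-03). PANK2, a pantothenate kinase, rose in 10X by 0.83 (limma adjusted p = 1.67e-10), but shares 2579 of its 9125 exon bases with RNF24 on the other strand, whose mean count was 1033 in 1X and 1813 in 10X. The pantetheinases VNN1, listed at 0 in every library, and VNN2 did not pass the filter.

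In 10X, GOT1 moved against most of its neighbours in both pathways to which it belongs. In the list from sulfinate and sulfite to sulfate, 7 of 12 genes were lower in 10X than in 1X and 2 were higher, GOT1 and the lysosomal sulfate transporter SLC26A11. The call of SLC26A1 (-0.70), 1 of the 7, was lost in 6 alternative settings, among them equal totals. In 0X, 2 of these 12 were higher than in 1X and 1 was lower. The lower gene was PAPSS2 (-0.45), a call lost without either 0X library. SUOX, the sulfite oxidase, fell from 589 ± 22.6 (SD, n = 4) to 382 ± 25.8 (SD, n = 4), a log2 fold change of -0.63 (SE 0.0737, limma adjusted p = 1.43e-06). PAPSS1, which activates sulfate, fell by 0.43 on the log2 scale (limma adjusted p = 2.30e-06). In the malate-aspartate shuttle, which moves reducing equivalents into mitochondria, GOT1 was higher and 5 of 7 genes were lower in 10X, a count that held with equal totals and without any 1 library. GOT2, the mitochondrial aminotransferase, fell from 8258 ± 410 (SD, n = 4) to 5709 ± 111 (SD, n = 4), a log2 fold change of -0.53 (SE 0.0409, limma adjusted p = 8.22e-09). SLC25A11, the mitochondrial carrier for malate and 2-oxoglutarate, fell to 35.0% of 1X (log2 fold change -1.51, SE 0.0458, limma adjusted p = 7.86e-14). In 0X, GOT1 was the only gene called among the 7 shuttle genes, a call that was lost without either 0X library. GOT2 in 0X had a log2 fold change of -0.21 (limma adjusted p = 0.0108) and was called lower in 11 of 18 alternative settings.

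Among 9 genes of taurine uptake and release, SLC6A6 was 1 of 3 that fell in 0X. The others were LRRC8A, the obligatory subunit of the volume-regulated anion channel that lets taurine out of swollen cells (log2 fold change -0.41, SE 0.0887, limma adjusted p = 3.56e-03), and its partner subunit LRRC8E (-0.59, SE 0.114, limma adjusted p = 1.78e-03). LRRC8E shares 74.3% of its exon bases with an antisense long noncoding gene, so its count is uncertain. Leaving out 0X replicate 1, SLC6A6 was the 1 gene of the 9 still called lower, and the call of LRRC8A was also lost without 0X replicate 2 or 1X replicate 1 or 2. LRRC8D, the subunit associated with passage of uncharged osmolytes and taurine, was higher in both media, with a mean of 786 in 1X, 1548 in 0X and 1399 in 10X (log2 fold changes 0.98 and 0.83, limma adjusted p = 3.26e-06 and 9.85e-09).

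In 10X, 4 of these 9 genes rose and 1 fell, where 46% of all genes were called, so 5 of 9 is close to the share over all genes. With equal totals 5 rose and none fell, and 61.8% of all calls were then higher. SLC6A13, a transporter of GABA that also accepts taurine, had the largest log2 fold change of the list, 2.28 (SE 0.360, limma adjusted p = 3.78e-05), from a mean of 17.5 in 1X to 79.3 in 10X. SLC16A6, a monocarboxylate carrier family member known to export taurine, rose from a mean of 80.6 to 136 (0.76, SE 0.165, limma adjusted p = 7.72e-04). SLC36A1, a lysosomal and plasma membrane amino acid transporter, was the gene that fell (-0.24, SE 0.0541, limma adjusted p = 1.30e-03).

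**Figure D4:**
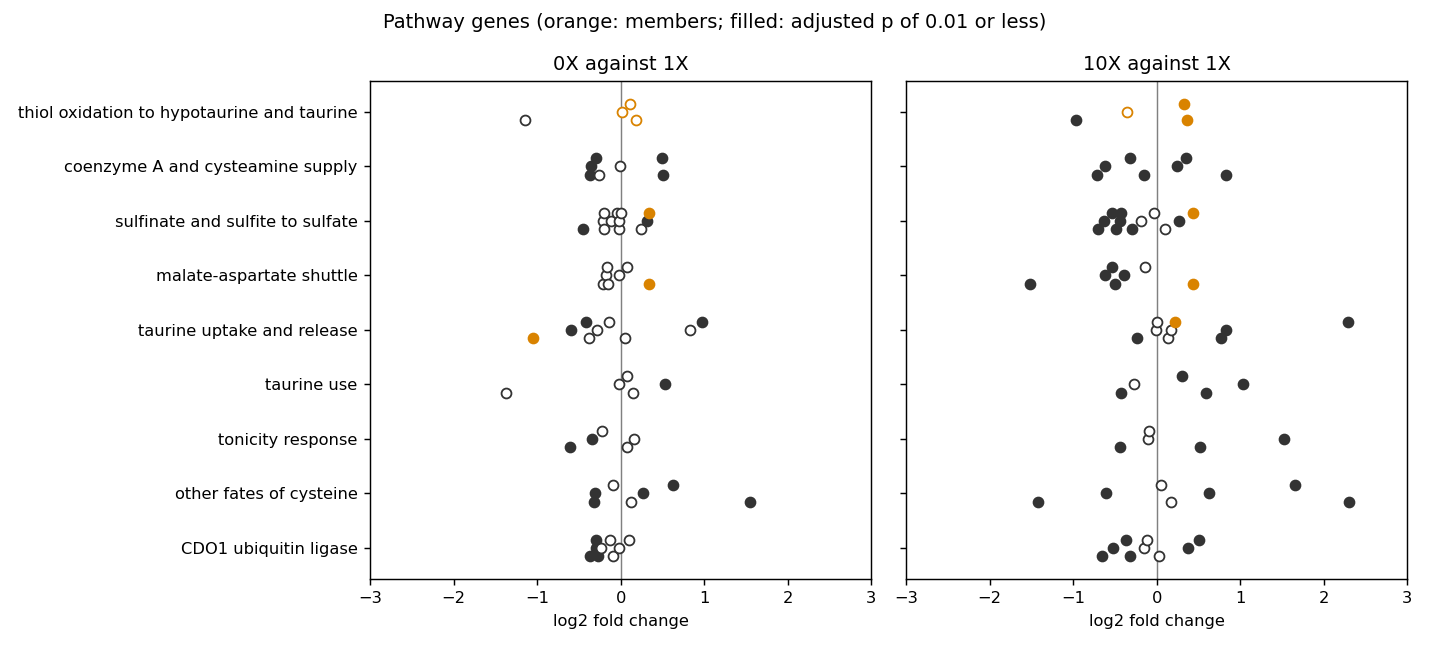
Log2 fold change (horizontal axis) of each pathway gene that passed the filter, by list (rows), in 0X against 1X and in 10X against 1X; orange marks are members, filled marks have a limma adjusted p of 0.01 or less, and GOT1 appears in 2 lists. In 10X, GOT1 at 0.43 stands to the right of the 6 other shuttle genes, and in 0X, SLC6A6 at -1.06 lies farthest to the left among taurine carriers.

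SLC6A6 is also a known target of NFAT5, the transcription factor that answers hypertonic stress, and the 5 genes of the tonicity list were set beside it. NFAT5 itself rose in 10X, from a mean of 3791 to 5421 (log2 fold change 0.52, SE 0.0537, limma adjusted p = 3.13e-07), as did the betaine transporter SLC6A12, from 23.1 to 67.7 (1.52, SE 0.216, limma adjusted p = 1.18e-05). AKR1B1, the aldose reductase that makes sorbitol, fell in 10X (-0.44, SE 0.0440, limma adjusted p = 1.97e-07). In 0X, the myo-inositol transporter SLC5A3 fell (-0.34, SE 0.0625, limma adjusted p = 1.28e-03) and so did the chaperone HSPA4L (-0.61, SE 0.0671, limma adjusted p = 2.86e-05). Without either 0X library the call of SLC5A3 was lost and that of HSPA4L was kept. NFAT5 in 0X had a log2 fold change of 0.16 (limma adjusted p = 0.112), and AKR1B1 one of 0.07 (limma adjusted p = 0.331).

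Of the 5 genes that use taurine, PTER, a hydrolase of N-acetyltaurine, rose in 0X by 0.53 (SE 0.0698, limma adjusted p = 1.20e-04) and in 10X by 0.60 (SE 0.0546, limma adjusted p = 7.23e-08). The rise of PTER in 0X was not called without 0X replicate 2 (0.48). BAAT, which joins bile acids to taurine or glycine, rose in 10X from a mean of 21.1 to 45.6 (1.03, SE 0.246, limma adjusted p = 1.79e-03), a call lost without 10X replicate 1 or 4, and its 0X mean was 7.75 (-1.37, limma adjusted p = 0.0217). GTPBP3, which helps place the taurinomethyl group on mitochondrial tRNAs, fell in 10X (-0.42, SE 0.0467, limma adjusted p = 7.00e-07). Its partner MTO1 had a log2 fold change of 0.31 in 10X (SE 0.0538, limma adjusted p = 1.18e-04). On the other strand, EEF1A1 shares 119 exon bases with MTO1. Spread evenly, EEF1A1 would have 3210 counts on them in 1X, more than the mean of MTO1 (1489). According to the methods reads over several genes were discarded, and the part of this overlap in the MTO1 value was not tested.

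Other fates of cysteine were read from 7 genes, of which 3 were called higher and 2 lower in 0X. In 10X the counts were likewise 3 higher and 2 lower, each against 1X. CTH, which makes cysteine from cystathionine, had a mean of 1595 in 1X, 4662 in 0X and 7839 in 10X (log2 fold changes 1.55 and 2.30, limma adjusted p = 3.94e-08 and 6.13e-15). GCLM, the modifier subunit of the first enzyme of glutathione synthesis, rose in 10X by 1.66 (SE 0.0517, limma adjusted p = 1.10e-13). GSS, the glutathione synthetase, moved the other way in 10X, with a mean of 2081 in 1X, 3210 in 0X and 1362 in 10X. NFS1, the desulfurase that supplies sulfur for iron-sulfur clusters, fell in 10X to 37.4% of 1X (-1.42, SE 0.0615, limma adjusted p = 6.84e-12) and fell in 0X (-0.31, SE 0.0733, limma adjusted p = 6.24e-03). The call of NFS1 in 0X was lost without either 0X library and without 1X replicate 1 or 2. The 10X changes of CTH, GCLM and NFS1 were each larger than that of any member.

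The list of the ligase that acts on CDO1 protein held LRRC58 and 8 shared subunits and ubiquitin-carrying partners. In 0X, 4 of the 9 were lower than in 1X, where 8.51% of all genes were, and in 10X 4 were lower and 2 higher, beside 22.9% and 23.1% of all genes. The 4 calls in 0X were lost with limma when either 0X library was left out, and 1 was made without 1X replicate 1 or 2. The ratio of LRRC58 to CDO1 mRNA was 14.3 in 0X (14.0 to 14.5), 19.6 in 1X (17.3 to 20.9) and 15.6 in 10X (14.3 to 17.4), so the ranges of 1X and 10X overlapped and that of 0X lay below 1X. LRRC58 itself had a mean normalized count of 4309 ± 25.8 (SD, n = 2) in 0X, 5212 ± 234 (SD, n = 4) in 1X and 5314 ± 175 (SD, n = 4) in 10X. It fell in 0X (log2 fold change -0.27, SE 0.0567, limma adjusted p = 2.92e-03), a call lost without either 0X library and without 1X replicate 1 or 2. In 10X its log2 fold change was 0.03 (SE 0.0428, limma adjusted p = 0.594), and with equal totals it was called higher (0.13, limma adjusted p = 5.48e-03).

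The genes most like each member across the 10 libraries were found among 12868 protein-coding genes by the root-mean-square difference of log2 values, each set relative to its own 1X mean. For CDO1 they were RNF216 (0.0506), UBE3A (0.0579) and VIM (0.0617), and for ADO FOXJ3 (0.0347), SIPA1L1 (0.0368) and RPL17 (0.0375). The nearest to GOT1 were ABL1 (0.0432), DCTN4 (0.0436) and SMAP1 (0.0462). CSAD and SLC6A6 had no neighbour as close, with ATG16L2 (0.114), SLC27A5 (0.120) and MTURN (0.123) for the former and MFSD2A (0.0945), YOD1 (0.117) and MAFK (0.125) for the latter. MFSD2A, a lipid transporter, fell in 0X by 1.04 on the log2 scale and had a log2 fold change of 0.22 in 10X (limma adjusted p = 2.36e-05 and 0.0198).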

How the data were processed

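Poly(A)-selected, strand-preserving libraries of HEK293T cells (10 samples) were sequenced from both ends. In the deposited table there is 1 signal value per gene and library, a read count that the authors divided by a DESeq2 size factor. According to the methods, the reads were aligned with STAR 2.7.10b to GRCh38 and counted on Ensembl genes, and reads over several genes were discarded; the methods name featureCounts and the submitters' processing notes name HTSeq as the counter. The strand setting is not given in the sources used here. Reads on bases shared with an antisense neighbour were therefore either assigned by strand or discarded, and which of these applied is not known. Counts of a neighbour spread over shared bases give the size of an overlap, not reads added to the gene. In each of the libraries 100.00% of values came out as whole reads (within 0.01 reads), and the recovered reads gave the depth; replicates differed by more than sampling noise (chi-square per degree of freedom between 3.53 and 14.7).

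Of 78894 IDs, 61463 were found in GENCODE 44, 42165 with a symbol. The filter kept the 29045 genes that reached a value of 10 in 3 or more of the 10 libraries. The log2 of the value plus a pseudocount of 1 was compared between the groups named, 2-sided, with limma 3.58.1 (eBayes with a trend) in R 4.3.3, with Benjamini-Hochberg adjustment over all genes kept; a gene counted as called when its adjusted p did not exceed 0.01, following the filter and threshold of the study. Fold changes are on that log2 scale and understate those of low genes. For each member the exact permutation test of the mean difference over libraries was added (scipy 1.17.1). On simulated data, 192, 199 and 200 of 200 changed genes were called in 0X against 1X, 10X against 1X and 0X against 10X, with 4, 4 and 8 unchanged genes, among 29045 genes. The simulated log2 changes were of 1 or 2 in either direction and only in genes with a mean of 100 or more. Smaller changes, which most of those of the members were, were not simulated, so their recovery is not known.

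The members and lists were chosen with earlier results of these data known. The genes named are the members, list genes called in at least 1 comparison (those with larger changes in each list before the others), list genes below the filter, and for each member the 3 protein-coding genes with the most similar pattern and a mean of 100 or more in the highest group. Alternatives were pseudocounts of 0.5 and 10, no filter, a minimum of 50, equal totals over all genes or over genes outside mitochondrial DNA, quantile normalization, all 3 groups in 1 fit, edgeR 4.0.16 (TMM) and DESeq2 1.42.0 on recovered reads, a block by replicate number, an adjusted p of 0.05, and each library left out.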

Additional observations from a re-analysis of the deposited data

Results flagged for a closer look

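The normalized count of CSAD in 1X replicate 4 was 775.8, and the nearest of the other 3 libraries of 1X had 531.5. The gap between them was 0.864 of the range of the group, above the 95% limit that Dixon's test sets for 4 samples. Of 10 groups of 4 libraries examined (5 members in 1X and in 10X) this was the 1 that passed, where chance marks about 1 group in 20. The part of this library in the difference of CSAD between 10X and 1X is given by the value without it, -0.20 in place of -0.35 on the log2 scale (limma adjusted p = 0.0373 and 0.0161).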

How the results depend on the processing

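Depth and the number of libraries both limit the precision, and 0X rests on 2 libraries. SLC6A6 in 0X (against 1X and against 10X), ADO and GOT1 in 10X and ADO in 0X against 10X were called in every alternative run. Calls were lost with no filter on low values for GOT1 in 0X (0.34, adjusted p = 0.0402), CDO1 in 10X (0.36, 0.0244), SLC6A6 in 10X (0.21, 0.0227) and CSAD in 0X against 10X (0.47, 0.0134), all from limma; this setting tests 78894 genes. CSAD in 10X against 1X became a call with DESeq2 on recovered reads (-0.38) and with an adjusted p of 0.05 or less (-0.35). GOT1 in 0X against 10X became one with equal totals over all genes (-0.18). No member value that was called changed sign.

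Leaving out 1 library at a time, GOT1 in 0X ranged from 0.30 to 0.38, CDO1 in 10X from 0.30 to 0.41 and CSAD in 10X from -0.42 to -0.20. ADO in 0X against 1X, which was not called, ranged from -0.02 to 0.05. The count of genes called in 0X against 1X, 4618, was 390 with no filter and 7987 at an adjusted p of 0.05, and ranged from 978 to 6300 with a library left out; it was 1198 and 978 without 0X replicates 1 and 2, and 2968 and 2795 without 1X replicates 1 and 2. The count in 0X against 10X, 13954, was 6877 with no filter, and equal totals moved the share of them higher in 0X from 49.2% to 40.0%. The count in 10X against 1X, 13372, stayed within 1.5 times under every alternative. For the other pathway genes followed, 1803 values under an alternative stayed on their side of the threshold, 112 lost a call, 39 gained one and none changed direction.

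The same-numbered replicates did not deviate together (correlations across genes between -0.116 and 0.103), so the numbers were not taken as a pairing. With the replicate number as a block, the log2 fold changes in 0X against 1X were 0.17 for CDO1, 0.26 for CSAD, 0.00 for ADO, -1.11 for SLC6A6 and 0.31 for GOT1, no member call changed, and 6532, 13392 and 12393 genes were called in 0X against 1X, 10X against 1X and 0X against 10X.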
